A study of Mus musculus with 12 samples.

Results

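The 10 genes described here belong to the growth hormone and insulin-like growth factor (IGF) axis and were chosen by symbol from the 54532 mouse genes of the count table. They are Ghr, Igf1, Igfals, Igfbp1, Igfbp2, Igfbp3, Igfbp4, Socs2, Stat5a and Stat5b, and each symbol belonged to 1 gene. RNA was sequenced from liver and subcutaneous fat of male mice that had received a single intravenous dose of an adeno-associated virus at 10 weeks of age and had then been kept on a low-fat diet for 16 weeks. The null group received the vector with the thyroxine-binding globulin promoter and no human gene, and the hHKDC1 OE group received the same vector with full-length human HKDC1, a hexokinase-related gene. That promoter is active in hepatocytes, so both groups carried virus and the fat was not the tissue targeted. Each of the 4 groups (null liver, hHKDC1 OE liver, null fat, hHKDC1 OE fat) had 3 libraries, 12 in all, and the strain was not given in the sources used here.

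Growth hormone from the pituitary binds its receptor on hepatocytes and adipocytes and acts through the kinase JAK2 and the transcription factors STAT5A and STAT5B. In liver this drives transcription of IGF1, which circulates in a complex with the binding protein IGFBP3 or IGFBP5 and the acid-labile subunit encoded by Igfals. Other IGF-binding proteins, among them IGFBP1, IGFBP2 and IGFBP4, hold IGF1 in smaller complexes. STAT5 also induces SOCS2, which dampens signalling at the receptor, and insulin represses the hepatic Igfbp1 gene.

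Each library held between 15496019 and 19954971 counts, and mouse Hkdc1 had 0 to 8 counts in each library. That row does not check the human transgene, which was not analysed here. The title and treatment fields of the labels call all 6 treated libraries overexpression, whereas the description field calls replicates 2 and 3 of each tissue knockouts. Marker sums matched the labelled tissues, in CPM (counts scaled to a common library total over the 12 libraries). The 10 hepatocyte markers summed to between 95498 and 163218 CPM in the liver libraries and between 653 and 5700.1 CPM in the fat libraries, and the 8 adipocyte markers to between 29.8 and 132 CPM in liver and between 13220 and 21474 CPM in fat. The fat libraries also carried other cells' RNA. Summed over 8 B cell markers, CPM was 1.48 to 2.42 in null fat and 699, 39.2 and 504 in replicates 1, 2 and 3 of hHKDC1 OE fat. The 6 T cell markers summed to 3.21 to 9.75 CPM in null fat and to 279, 20.9 and 290.3 CPM in hHKDC1 OE fat. Skeletal muscle markers (5 genes) varied within both fat groups, from 343 to 14845 CPM in null fat and from 697 to 10359 CPM in hHKDC1 OE fat. In hHKDC1 OE fat, replicate 2 therefore stood apart in its lymphocyte markers, and values without it are given below where stated. In bulk tissue, fewer cells of a type and less RNA per cell cannot be told apart.

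In the annotation of the files (GRCm38), Igfbp1 (ENSMUSG00000020429, chr11:7197782-7202546, plus strand) and Igfbp3 (ENSMUSG00000020427, chr11:7206086-7213923, minus strand) are neighbours whose ends lie 3539 bases apart. Stat5b (ENSMUSG00000020919, chr11:100780731-100850724, minus strand) and Stat5a (ENSMUSG00000004043, chr11:100859351-100885169, plus strand) lie 8626 bases apart, and 72 exon bases of Stat5a overlap Stat3 on the other strand. Reads from that overlap cannot be told apart in these unstranded libraries. Igfbp4 (ENSMUSG00000017493, chr11:99041244-99054392, plus strand) is on the same chromosome. Igf1 (ENSMUSG00000020053, chr10:87858265-87937042, plus strand) and Socs2 (ENSMUSG00000020027, chr10:95385362-95417180, minus strand) are on chromosome 10. The remaining members are Ghr (ENSMUSG00000055737, chr15:3317760-3583492, minus strand), Igfbp2 (ENSMUSG00000039323, chr1:72824503-72852474, plus strand) and Igfals (ENSMUSG00000046070, chr17:24878770-24882008, plus strand). The extent of Igfals in the files differs from that in GENCODE M21, and both of its stretches printed below lie before the start in the files.

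Of the 10 genes, 9 had a start-site window in the RefSeq table (GRCm38.p6; 250 bases before to 50 after a transcript start, 15 windows). The windows were searched on both strands for TTCNNNGAA, the spaced palindrome that STAT5 binds, and for CAAAACAA, a core of the insulin response element described in front of Igfbp1. The palindrome was in 2 of the 15 windows, both of Igfals, and in 8.30% of all 32851 windows. The CAAAACAA core was in 1 of the 15 windows, that of Igfbp1, and in 2.51% of all windows. The matched stretches are shown because these were the members' windows that held a searched motif. Capitals mark the match, each stretch ends before the first annotated exon base, and a match is a description of the letters only.
Igfals, chr17:24877594-24877655, plus strand: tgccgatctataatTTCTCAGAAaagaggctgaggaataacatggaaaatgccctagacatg
Igfals, chr17:24877981-24878214, plus strand: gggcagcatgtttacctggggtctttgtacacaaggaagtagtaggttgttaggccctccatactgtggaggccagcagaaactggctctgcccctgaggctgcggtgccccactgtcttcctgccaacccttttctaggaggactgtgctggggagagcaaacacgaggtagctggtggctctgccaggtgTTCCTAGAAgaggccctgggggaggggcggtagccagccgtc
Igfbp1, chr11:7197537-7197781, plus strand: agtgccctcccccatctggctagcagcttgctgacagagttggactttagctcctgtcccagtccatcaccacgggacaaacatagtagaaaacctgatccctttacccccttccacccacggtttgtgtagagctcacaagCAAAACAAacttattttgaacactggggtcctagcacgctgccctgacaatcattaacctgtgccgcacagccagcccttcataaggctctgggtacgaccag

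The first comparison, between null fat and null liver, sets out where each gene is expressed without the transgene. Liver held more of 6 of the genes (Igf1, Igfals, Igfbp1, Igfbp2, Igfbp4 and Socs2) and fat held more Stat5a. For Ghr, Stat5b and Igfbp3 no difference between the tissues was called. A gene was called where edgeR's quasi-likelihood F test gave a p under 0.05 after adjustment over all genes by Benjamini and Hochberg's method. These 7 calls stand beside 64.3% of the 15259 genes tested (33.8% higher in fat and 30.5% lower), and the groups did not overlap in the same 7 genes, against 71.6% of all genes (37.8% above and 33.8% below). All 7 also had an unadjusted p under 0.05, as had 67.8% of all genes. These p-values measure the spread between these libraries alone, and the labels do not say whether liver and fat with the same number came from 1 mouse.

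Levels between genes are compared in the deposited FPKM, counts divided by gene length and scaled over the 12 libraries. In null liver, Igfbp4 was at 716 ± 18.4 FPKM (SD, n = 3), above Igfbp2 at 364 ± 85.5 and Ghr at 104 ± 17.5, and these ranges did not overlap from one to the next. Ghr, Igf1 (88.9 ± 13.7 FPKM), Igfbp1 (74.5 ± 14.2) and Igfals (70.9 ± 10.4) followed each other with overlapping ranges. Stat5b (11.1 ± 2.38 FPKM) and Igfbp3 (9.71 ± 1.87) lay below them with overlapping ranges, and Socs2 (2.64 ± 2.40) and Stat5a (2.28 ± 0.242) were lowest. In null fat the order began with Igfbp4 at 144 ± 22.0 FPKM and Ghr at 91.3 ± 8.97, whose ranges did not overlap. Igfals at 30.5 ± 11.3, Igf1 at 15.5 ± 3.18, Stat5b at 13.7 ± 2.95, Igfbp3 at 12.7 ± 2.23 and Igfbp2 at 7.15 ± 6.88 each overlapped the next. Stat5a (5.63 ± 0.377 FPKM) was above Igfbp1 (1.25 ± 0.808) and Socs2 (0.658 ± 0.127) without overlap.

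**Figure D1:**
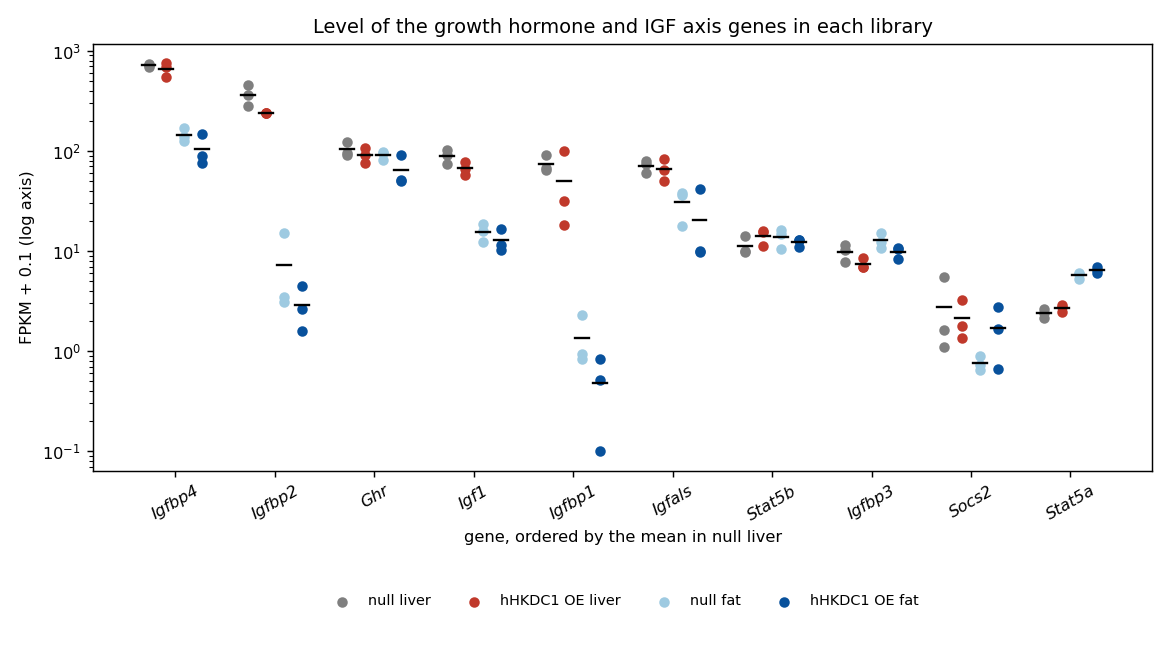
FPKM plus 0.1 on a log axis for each of the 10 genes, with 1 point per library and a black line at the mean of each group of 3. Igfbp1 and Igfbp2 stood far lower in fat than in liver, the null tissues overlapped for Ghr, Igfbp3 and Stat5b, and the hHKDC1 OE fat library at 0.1 for Igfbp1 had 0 counts.

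Ghr, the receptor gene, was at 124, 95.9 and 91.3 FPKM in null liver and at 98.3, 81.2 and 94.4 in null fat. Replicate 1 of null liver was the highest of the 6 and the tissues overlapped. Null fat against null liver gave a log2 fold change of -0.24 (standard error, SE, 0.20, adjusted p = 0.324), and it turned to 0.66 and was called as higher in fat (adjusted p = 0.0146) when libraries were scaled by their total counts alone. That scaling moved the median log2 fold change of all genes from 0.09 to 0.98, and it left 8 genes called, 4 higher in fat and 4 lower, against 1 higher and 6 lower with the main scaling, while 74.0% of all genes were called.

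Stat5a and Stat5b encode closely related transcription factors, and of the pair Stat5a was called between the tissues and Stat5b was not. Stat5a was at 2.52, 2.04 and 2.28 FPKM in null liver and at 5.20, 5.91 and 5.77 in null fat, with every fat library above every liver library. Its log2 fold change was 1.25 (SE 0.14, adjusted p = 0.00012). Stat5b was at 13.9, 9.66 and 9.84 FPKM in null liver and at 16.1, 14.6 and 10.4 in null fat. Those ranges overlapped, and its log2 fold change was 0.25 (SE 0.21). The ratio of Stat5b to Stat5a FPKM was 4.85 ± 0.599 in null liver and 2.46 ± 0.650 in null fat (SD, n = 3), which gave p = 0.1 by an exact two-sided permutation test of log2 ratios, the smallest that 3 libraries against 3 can give. Of the stretches of 150 bases in their transcripts, 2.21% of Stat5a and 3.16% of Stat5b were common to both.

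Socs2, the feedback inhibitor, was at 1.52, 0.999 and 5.40 FPKM in null liver and at 0.623, 0.553 and 0.799 in null fat. Replicate 3 of null liver was far above the other liver libraries, and the tissues did not overlap. The log2 fold change was -2.07 (SE 0.59, adjusted p = 0.0159), and without that library it was -0.99 (adjusted p = 0.0218). Without replicate 2 of null fat the adjusted p was 0.0564 at a log2 fold change of -1.92. Of the 150-base stretches in its transcripts, 1.25% were shared with Gm9847.

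Igf1, the growth factor, was at 90.1, 74.6 and 102 FPKM in null liver and at 18.7, 12.3 and 15.6 in null fat. Every fat library was below every liver library, and the log2 fold change was -2.57 (SE 0.23, adjusted p = 3.9e-05). Igfals, whose product stabilises the circulating complex, was at 73.4, 59.5 and 79.9 FPKM in null liver and at 35.9, 17.5 and 38.0 in null fat. Here too the tissues did not overlap, at a log2 fold change of -1.28 (SE 0.28). Igfbp3, the main carrier in blood, was at 7.63, 10.2 and 11.3 FPKM in null liver and at 15.1, 10.7 and 12.3 in null fat, with overlap and a log2 fold change of 0.33 (SE 0.19). With libraries scaled by their total counts alone, Igfals fell out of the calls (log2 fold change -0.38, adjusted p = 0.279) and so did Socs2 (-1.19, adjusted p = 0.111), whereas Igfbp3 (1.21) and Stat5b (1.14) entered them as higher in fat.

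Igfbp1 and Igfbp2 had the largest fitted differences between the null tissues among the 10 genes. Igfbp1 was at 68.0, 64.8 and 90.8 FPKM in null liver and at 0.826, 0.738 and 2.18 in null fat, and its log2 fold change was -5.94 (SE 0.42). Igfbp2 was at 280, 451 and 359 FPKM in null liver and at 3.36, 3.00 and 15.1 in null fat, and its log2 fold change was -5.73 (SE 0.71). In both genes replicate 3 of null fat was the highest fat library, and without it the log2 fold changes were -6.59 and -6.86. Igfbp4, whose product holds IGF1 until a protease cleaves it, had the highest mean FPKM in all 4 groups. It was at 717, 697 and 734 FPKM in null liver and at 139, 125 and 168 in null fat. The tissues did not overlap, and its log2 fold change was -2.37 (SE 0.22).

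The fat libraries contained hepatocyte transcripts, and this bears on Igfbp1 and Igfbp2. Summed over 10 hepatocyte markers, CPM in null fat replicates 1, 2 and 3 was 1.31%, 1.33% and 3.65% of the null liver mean, and in hHKDC1 OE fat it was 1.06%, 0.418% and 0.666%. All 10 markers were above 0 in every fat library. Igfbp1 lay at 0% to 2.75% of its null liver mean in the 6 fat libraries and Igfbp2 at 0.395% to 3.91%. Divided by the marker percentage of the same library, Igfbp1 came to 0 to 1.28 and Igfbp2 to 0.611 to 1.21. The other members were well above the marker percentage in every fat library, with Igf1 at 12.3% to 20.2% of its null liver mean, Igfbp4 at 11.3% to 22.1%, Igfals at 14.6% to 57.5%, Socs2 at 20.6% to 106%, Ghr at 51.8% to 91.2% and Igfbp3 at 91.5% to 150%. In these fat libraries Igfbp1 and Igfbp2 were thus at about the level of the hepatocyte markers themselves, except Igfbp1 in replicate 3 of hHKDC1 OE fat, at 0%. The part of hepatocyte RNA in them was not tested.

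**Figure D2:**
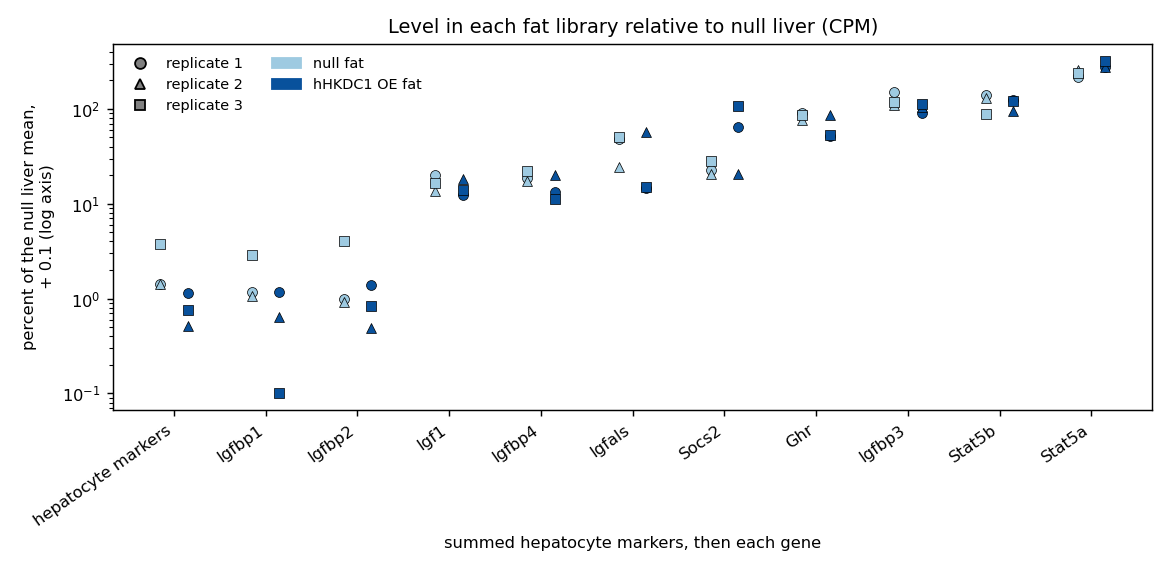
CPM in each fat library as a percentage of the null liver mean (plus 0.1, log axis), for the summed hepatocyte markers and for each gene, with the replicate shown by the shape of the point. Igfbp1, Igfbp2 and the hepatocyte markers lay at 3.91% or less, while the other 8 genes lay at 11.3% or more in every fat library.

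In liver, hHKDC1 OE was compared with null to see whether the vector with the gene altered the axis in the tissue it targets. None of the 10 genes was called by edgeR (0% of the 13351 genes tested), and 0 were called by DESeq2 or limma. Igfbp2, at 332 ± 4.84 CPM against 494 ± 123 CPM in null liver (SD, n = 3), was the member with the smallest p. It alone had an unadjusted p under 0.05 (6.94% of all genes) and groups that did not overlap (12.5% of all genes, 6.31% with hHKDC1 OE above and 6.18% below). The median difference of the 10 genes was -0.26 on the log2 scale, with 8 below 0, and that of all genes was 0.0064. Summed CPM of the 10 hepatocyte markers was also lower in hHKDC1 OE liver, at 95498 to 127402 against 152665 to 163218 in null liver, and its part in these values was not tested. Kupffer cell markers (5 genes) summed to 113, 128 and 203 CPM in null liver and to 436, 199.8 and 202 CPM in hHKDC1 OE liver, with replicate 1 of hHKDC1 OE above all null libraries and the others within their range. Macrophage markers (6 genes) came to between 141 and 210 CPM in null liver and between 189 and 363 CPM in hHKDC1 OE liver. Endothelial markers (5 genes) ran from 109.8 to 157 CPM in null liver and from 68.0 to 121 CPM in hHKDC1 OE liver. Their part in the members' values was not tested either.

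Treatment values are CPM scaled within the tissue by TMM. In liver, Igfbp2 was at 369, 616 and 496 CPM in the null libraries and at 328, 337 and 332 CPM in the hHKDC1 OE libraries. All 3 hHKDC1 OE libraries were below the lowest null library, and they differed from each other far less than the null libraries did. The log2 fold change was -0.57 (SE 0.20, 95% interval -1.01 to -0.13, adjusted p = 0.606), and the exact two-sided permutation p was 0.1, the smallest possible here. Without null liver replicate 2 the log2 fold change was -0.38, and without null liver replicate 1 it was -0.74.

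Igf1 was at 637, 546 and 754 CPM in null liver and at 562, 493 and 428 CPM in hHKDC1 OE liver. Replicates 2 and 3 of hHKDC1 OE were below all null libraries and replicate 1 was within their range. The log2 fold change was -0.38 (SE 0.18, 95% interval -0.79 to 0.023). Igfbp3 was likewise lower in 2 of 3 libraries, at 7.63, 10.2 and 11.3 FPKM in null liver and 6.74, 8.37 and 6.87 FPKM in hHKDC1 OE liver, with a log2 fold change of -0.38 (SE 0.20, 95% interval -0.82 to 0.065). Igfals was at 111, 92.8 and 126 CPM in null liver and at 130, 81.2 and 102 CPM in hHKDC1 OE liver, and the treated libraries spanned the whole null range. Its log2 fold change was -0.07 (SE 0.20).

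Igfbp1, which insulin represses, varied widely in treated liver. It was at 74.0, 73.0 and 103 CPM in null liver and at 35.1, 115 and 20.8 CPM in hHKDC1 OE liver. Replicates 1 and 3 were below every null library and replicate 2 was above every one. Over all 6 libraries the log2 fold change was -0.55 (SE 0.51, adjusted p = 0.888), and without replicate 2 of hHKDC1 OE it was -1.58 (SE 0.26, adjusted p = 0.023), the 1 member called in that fit beside 1.07% of the 13587 genes tested. Without replicate 3 of hHKDC1 OE it was -0.15 (adjusted p = 0.998). In the summed hepatocyte markers, replicate 2 (116499 CPM) lay between replicates 1 (127402 CPM) and 3 (95498 CPM). Leaving out both libraries described as knockouts kept replicate 1 alone, and Igfbp1 was then at a log2 fold change of -1.25 (adjusted p = 0.13), where the lone library is assumed to vary like the null libraries.

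**Figure D3:**
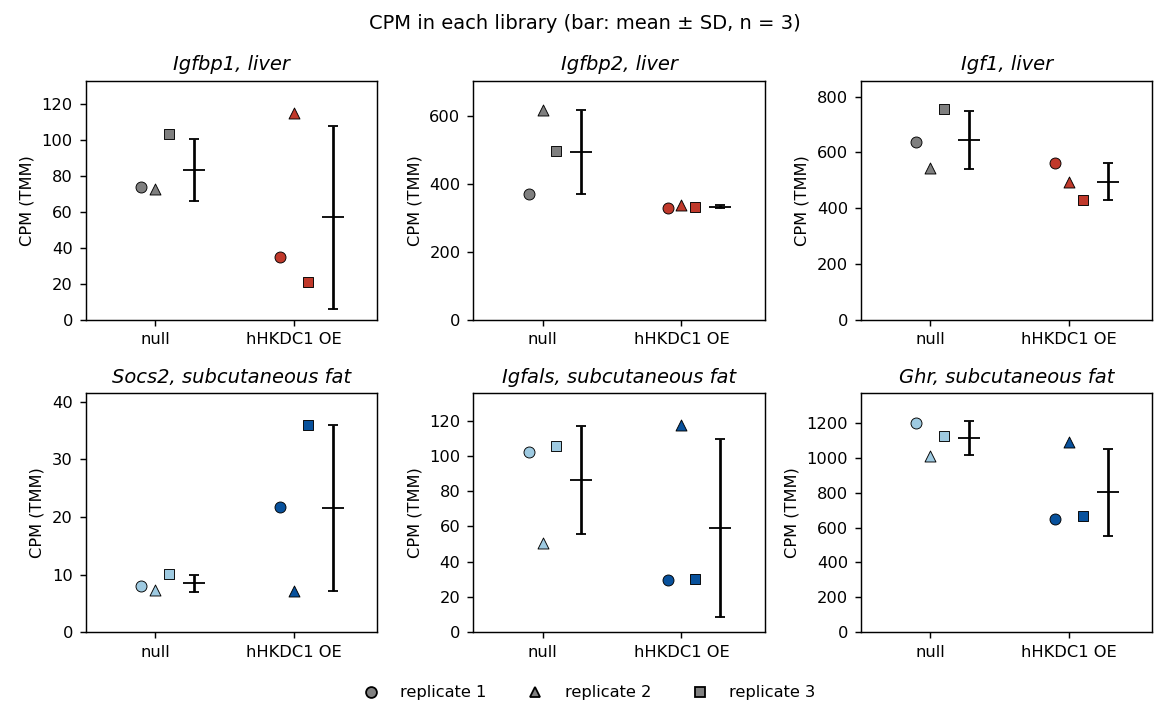
CPM (TMM, scaled within the tissue) in each library for Igfbp1, Igfbp2 and Igf1 in liver and Socs2, Igfals and Ghr in subcutaneous fat, with the replicate number as the shape of the point and a bar for mean ± SD (n = 3). In hHKDC1 OE, replicate 2 stood at 115 CPM against 35.1 and 20.8 CPM for Igfbp1 in liver, and at 117 against 29.3 and 30.1 CPM for Igfals in fat.

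Of the receptor and its signalling genes in liver, Ghr was at 798, 641 and 618 CPM in null liver and at 707, 519 and 618 CPM in hHKDC1 OE liver, with overlap and a log2 fold change of -0.16 (SE 0.18, 95% interval -0.57 to 0.25). Stat5b was at 54.8, 39.5 and 40.7 CPM in null liver and at 62.5, 46.6 and 64.8 CPM in hHKDC1 OE liver, where 2 of 3 libraries were above all null libraries. Its log2 fold change was 0.36 (SE 0.18, 95% interval -0.051 to 0.78). Stat5a was at 12.8, 10.7 and 12.2 CPM in null and at 12.5, 14.4 and 14.8 CPM in hHKDC1 OE liver, with a log2 fold change of 0.22 (SE 0.16). The ratio of Stat5b to Stat5a FPKM was 5.42 ± 1.16 in hHKDC1 OE liver against 4.85 ± 0.599 in null liver (exact two-sided permutation p = 0.6, n = 3 per group). Socs2 was at 10.3, 7.04 and 38.4 CPM in null liver and at 8.79, 12.3 and 22.2 CPM in hHKDC1 OE liver. The treated range lay inside the null range, and the log2 fold change of -0.37 (SE 0.58) became 0.73 (adjusted p = 0.699) without replicate 3 of null liver. Igfbp4 was at 2258, 2273 and 2421 CPM in null and at 2441, 1827 and 2304 CPM in hHKDC1 OE liver, with a log2 fold change of -0.08 (SE 0.18).

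In subcutaneous fat, which the promoter does not target, the same vectors were compared. Again none of the 10 genes was called by edgeR (0% of the 16380 genes tested), and 0 were called by DESeq2 or limma. Socs2 was at 21.6 ± 14.4 CPM in hHKDC1 OE fat against 8.45 ± 1.45 CPM in null fat (SD, n = 3), and it alone had an unadjusted p under 0.05 (17.7% of all genes). In CPM scaled within the tissue, Stat5a alone had groups that did not overlap (22.7% of all genes, 12.5% with hHKDC1 OE above and 10.2% below). Where ranges nearly met, overlap depended on the scaling. In FPKM Igfbp1 and Igfbp3 did not overlap either, and the share of all genes in FPKM was not counted. The members' median difference on the log2 scale was -0.39, with 8 below 0, against -0.045 for all genes. Without replicate 2 of hHKDC1 OE fat, the treated library with the lowest lymphocyte markers, 4 members were called: Ghr, Igfals and Igfbp4 lower and Socs2 higher, beside 1957 genes higher and 1294 lower, or 18.9% of the 17190 genes tested in that fit.

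Socs2 in fat was at 8.03, 7.26 and 10.1 CPM in null and at 21.7, 7.14 and 36.0 CPM in hHKDC1 OE. Replicates 1 and 3 were above every null library, and replicate 2 was close to the lowest null library. In FPKM replicate 2, at 0.563, was just above null replicate 2, at 0.553. The log2 fold change was 1.35 (SE 0.53, adjusted p = 0.257), and without replicate 2 it was 1.76 (adjusted p = 0.0079). Without replicate 3 of hHKDC1 OE it was 0.77 (adjusted p = 0.591).

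Igfals was at 102, 50.8 and 106 CPM in null fat and at 29.3, 117 and 30.1 CPM in hHKDC1 OE fat. Replicates 1 and 3 were below every null library and replicate 2 was above every one. Its log2 fold change was -0.55 (SE 0.58, adjusted p = 0.627), and without replicate 2 it was -1.55 (adjusted p = 0.0218). Without replicate 1 or replicate 3 of hHKDC1 OE it was -0.23 or -0.24 (adjusted p = 0.911 and 0.896). The 8 adipocyte markers summed to 16276, 21325 and 21474 CPM in null fat and to 13220, 21278 and 16623 CPM in hHKDC1 OE fat, so replicate 2 was highest of the treated libraries in those markers too.

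Ghr in fat was at 1203, 1012 and 1128 CPM in null and at 649, 1091 and 669 CPM in hHKDC1 OE, with replicate 2 within the null range and the others below it. The log2 fold change was -0.47 (SE 0.26, 95% interval -1.09 to 0.15), and it was -0.77 without replicate 2 (adjusted p = 0.0236) and -0.34 without replicate 1 of hHKDC1 OE (adjusted p = 0.696). Igfbp4 was at 830, 758 and 978 CPM in null fat and at 560, 867 and 476 CPM in hHKDC1 OE fat, again with replicate 2 within the null range. Its log2 fold change was -0.43 (SE 0.27), and it was -0.73 without replicate 2 (adjusted p = 0.0398) and -0.26 without replicate 3 of hHKDC1 OE (adjusted p = 0.737). Igf1 was at 250, 168 and 204 CPM in null fat and at 145, 218 and 163 CPM in hHKDC1 OE fat. Its log2 fold change was -0.24 (SE 0.22), and it was -0.44 without replicate 2 (adjusted p = 0.176) and -0.11 without null fat replicate 1.

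Replicate 2, with the lowest lymphocyte markers, was the treated library closest to the null mean in 6 of the 10 members, these 5 genes and Stat5a. It was so in 55.7% of all genes with at least 10 counts in 3 fat libraries (CPM scaled over the 12 libraries). Macrophage markers (6 genes) summed to 348, 173 and 364 CPM in null fat and to 755, 529 and 929 CPM in hHKDC1 OE fat, and stromal markers (7 genes) to 3805, 2663 and 3817 CPM and to 1636, 4595 and 2876 CPM. The part of lymphocyte, macrophage, adipocyte and stromal RNA in these differences was not tested. Leaving out the libraries described as knockouts kept replicate 1 alone in hHKDC1 OE fat, and 0 members were called beside 5.58% of the 18343 genes tested, with log2 fold changes of 1.35 for Socs2 (adjusted p = 0.068), -0.79 for Ghr (adjusted p = 0.12) and -1.57 for Igfals (adjusted p = 0.131).

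**Figure D4:**
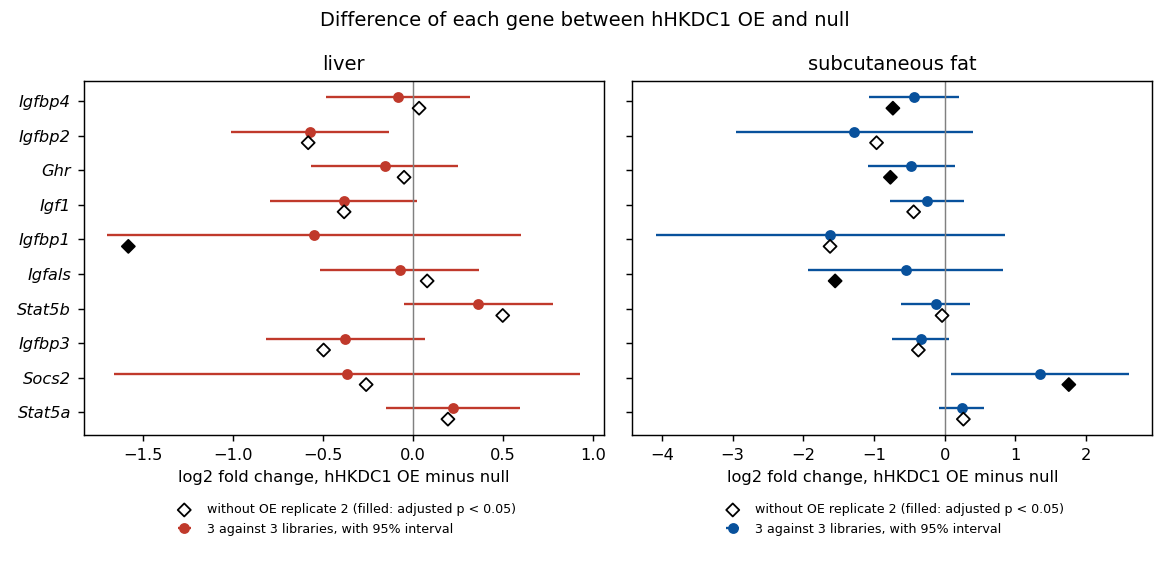
Log2 fold change of hHKDC1 OE against null for each gene in liver and in subcutaneous fat, with 95% intervals for 3 libraries against 3 (coloured points) and the value without hHKDC1 OE replicate 2 (diamonds, filled at an adjusted p under 0.05). No gene was called with all libraries, and without replicate 2 the filled diamonds were Igfbp1 at -1.58 in liver and Ghr, Igfals, Igfbp4 and Socs2 at -0.77, -1.55, -0.73 and 1.76 in fat.

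Stat5a in fat was at 50.1, 58.0 and 54.3 CPM in null and at 60.7, 60.7 and 70.4 CPM in hHKDC1 OE. All treated libraries were above all null libraries, and the log2 fold change was 0.24 (SE 0.13). Stat5b was at 121, 111 and 76.2 CPM in null fat and at 101, 80.5 and 101 CPM in hHKDC1 OE fat, all within the null range. The ratio of Stat5b to Stat5a FPKM was 1.90 ± 0.225 in hHKDC1 OE fat against 2.46 ± 0.650 in null fat (exact two-sided permutation p = 0.3, n = 3 per group). Igfbp3 was at 64.0, 46.3 and 50.8 CPM in null fat and at 37.2, 43.7 and 46.4 CPM in hHKDC1 OE fat, with a log2 fold change of -0.34 (SE 0.17, 95% interval -0.75 to 0.067). Igfbp2 had 138, 123 and 688 counts in null fat and 243, 74 and 108 counts in hHKDC1 OE fat, and its log2 fold change was -1.28 (SE 0.71) with all libraries and -0.18 without null fat replicate 3. Igfbp1 had 28, 25 and 82 counts in null fat and 34, 17 and 0 counts in hHKDC1 OE fat, and a count of 0 allows up to 3 counts by counting error alone. Its log2 fold change was -1.62 (SE 1.05), with -0.996 left without null fat replicate 3 and -2.55 without replicate 1 of hHKDC1 OE. For both genes the hepatocyte marker percentages given above were also highest in null fat replicate 3.

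The treatment effect in fat was also set against that in liver in 1 fit over the 12 libraries. None of the 10 genes was called for a difference between the effects (0% of the 17070 genes tested), and 0 had an unadjusted p under 0.05 (12.7% of all genes) or were called by DESeq2 or limma. Socs2 had the widest difference, with a log2 value of 1.79 for fat minus liver (SE 0.91, 95% interval -0.19 to 3.77, adjusted p = 0.432) and of 0.70 without null liver replicate 3. Igfbp1 followed at -0.95 (SE 1.05) and Igfbp2 at -0.63 (SE 0.77). Stat5b and Igfals were both at -0.41 (SE 0.30 and 0.66), Igfbp4 at -0.28 (SE 0.37) and Ghr at -0.24 (SE 0.34). Without replicate 2 of hHKDC1 OE fat, Igfbp4 was at -0.77 (adjusted p = 0.196) and Ghr at -0.73 (adjusted p = 0.175). Stat5b was at -0.75 without null fat replicate 3. The values above 0 were those of Igf1 (0.22, SE 0.32), Igfbp3 (0.12, SE 0.26) and Stat5a (0.099, SE 0.20) beside Socs2. Without replicate 2 of hHKDC1 OE fat, the difference for Igfals was -1.60 (adjusted p = 0.0394), the 1 member called beside 6.77% of the 17875 genes tested. With replicate 2 left out of both tissues it was -1.55 (adjusted p = 0.0447), again the 1 member called, beside 6.66% of 17775 genes.

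Genes around the members were taken from lists, of which the 3 with the smallest p are named for each comparison. In its main fit of each tissue, with the 6 libraries of that tissue and low counts filtered, edgeR called 0 genes of any list in liver and 0 in fat. Other fits called some of the named genes. Without the filter on low counts, edgeR called Bcl6 (adjusted p = 0.0429), Cyp4a12b (6.9e-06), Elovl3 (0.00097), Hsd3b5 (0.0075) and Pdk4 (0.0017) in liver, beside 1.32% of 24792 genes, and Socs1 (0.0268) and Socs3 (0.0451) in fat, beside 2.69% of 29853 genes. In 1 fit over the 12 libraries it called Ptpn1 (adjusted p = 0.0349) and Cyp4a12b (0.0339) in fat, beside 5.13% of 17070 genes, and without the libraries described as knockouts, where the treated arm was 1 library, Socs3 (0.0286) and Ptpn1 (0.0427), beside 5.58% of 18343 genes. Of 13 genes of growth hormone receptor signalling, 10 were higher and 3 lower in hHKDC1 OE liver, and the list's median difference on the log2 scale was 0.20 against 0.0064 for all genes. None had an unadjusted p under 0.05 (6.94% of all genes), and the 3 with the smallest were the receptor-associated kinase Jak2 (0.27, SE 0.19), the cytokine signalling inhibitor Socs1 (1.42, SE 0.98) and the STAT5-opposing repressor Bcl6 (0.63, SE 0.37). Socs1 was at 0.31 without replicate 3 of hHKDC1 OE liver. Bcl6 was at 0.34 without null liver replicate 3 and at 1.17 without null liver replicate 2. Jak2 was at 0.16 and 0.39 without replicates 1 and 2 of hHKDC1 OE liver. In fat, 8 were higher and 5 lower, with a median of 0.31 against -0.045 for all genes and 5 at an unadjusted p under 0.05 (17.7% of all genes). The inhibitors Socs1, at 11.6 ± 7.17 CPM in hHKDC1 OE against 1.36 ± 0.908 CPM in null fat (SD, n = 3), and Socs3, at 17.0 ± 9.29 against 4.67 ± 1.24 CPM, had log2 fold changes of 3.07 and 1.86 (adjusted p = 0.137 and 0.148). The phosphatase gene Ptpn1 followed at 0.78 (adjusted p = 0.167). In these 3 genes the groups did not overlap, as in 22.7% of all genes, and without replicate 2 of hHKDC1 OE fat all 3 were called, at 3.50, 2.25 and 0.99, as were 18.9% of all genes. The lymphocyte and macrophage marker sums given above were also higher in hHKDC1 OE fat, and their part was not tested.

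Among IGF and insulin receptors, ligands and binding proteins, 7 of 13 were tested in liver, 2 higher and 5 lower, and the list's median difference on the log2 scale was -0.042 against 0.0064 for all genes. The insulin receptor substrate Irs2 was at 0.38 (SE 0.28), and the binding proteins Igfbp5 and Igfbp7 were at -0.70 (SE 0.40) and -0.30 (SE 0.14). Irs2 was at 0.082 without replicate 3 of hHKDC1 OE liver and at 0.68 without null liver replicate 3. Igfbp5 was at -1.35 without replicate 2 of hHKDC1 OE liver. In fat, 11 of 13 were tested, 3 higher and 8 lower, with a median of -0.11 against -0.045 for all genes. The insulin receptor gene Insr was at 138 ± 14.6 CPM against 193 ± 14.6 CPM in null fat (SD, n = 3), with no overlap (22.7% of all genes) and a log2 fold change of -0.48 (SE 0.15, adjusted p = 0.179). Igfbp5 and Igfbp6, binding proteins made by stromal cells, were at -0.84 (SE 0.43) and -0.75 (SE 0.50). All 3 were called as lower without replicate 2 of hHKDC1 OE fat, with Insr at -0.57, Igfbp5 at -1.40 and Igfbp6 at -1.47, beside 18.9% of all genes called in either direction. In the treated libraries kept in that fit the summed stromal markers were at 1636 and 2876 CPM, while replicate 2 was at 4595 and the null libraries between 2663 and 3817 CPM, and their part was not tested. Between the null tissues, 10 of the 11 genes tested were higher in fat and 9 were called as higher (33.8% of all genes), among them the receptor gene Igf1r (log2 fold change 2.66, SE 0.29) and Igfbp5 (4.66, SE 0.36), whereas Igf1 itself was higher in liver.

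Genes of mouse liver that depend on the male pattern of growth hormone pulses were split in direction. Of 14 such genes in hHKDC1 OE liver, 10 were higher and 4 lower, and the list's median difference on the log2 scale was 0.40 against 0.0064 for all genes, with 5 at an unadjusted p under 0.05 (6.94% of all genes). The fatty acid hydroxylase Cyp4a12b was at 63.5 ± 12.2 CPM in hHKDC1 OE against 131 ± 38.4 CPM in null liver (SD, n = 3), with no overlap (12.5% of all genes). Its log2 fold change was -1.05 (SE 0.24, adjusted p = 0.406). DESeq2 called it (adjusted p = 0.0041) beside 0.367% of the 24792 genes with a count. Its value is uncertain, since Cyp4a12a is a closely related copy and how their reads were divided was not measured. The fatty acid elongase Elovl3 was at -0.86 (SE 0.32) and the steroid dehydrogenase Hsd3b5 at 0.75 (SE 0.26), and without replicate 2 of hHKDC1 OE liver they were called at -1.36 (adjusted p = 0.0162) and 1.01 (adjusted p = 0.019), beside 1.07% of all genes. Of 15 female-biased genes, 5 were tested in liver, with a median of -0.22 and 0 at an unadjusted p under 0.05 (6.94% of all genes). The 3 with the smallest p were Cyp2b9 (0.96, SE 1.20), the estrogen sulfotransferase Sult1e1 (-0.89, SE 0.62) and the peroxisomal transporter Abcd2 (-0.86, SE 0.39). Sult1e1 was at -0.088 without null liver replicate 3, and Cyp2b9 turned to -2.20 without replicate 2 of hHKDC1 OE liver.

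In fat, 12 of the 14 male-biased genes were lower, and the list's median difference on the log2 scale was -0.74 against -0.045 for all genes. Cyp2d9, Cyp4a12a and Cyp4a12b were at -1.19 (SE 0.59), -1.65 (SE 0.64) and -1.96 (SE 0.61), and Cyp2d9 was at -0.33 without null fat replicate 3. Without replicate 2 of hHKDC1 OE fat these genes were at -0.95, -1.26 and -1.58, and edgeR called none of them (adjusted p = 0.344, 0.156 and 0.083). All 14 were lower in null fat than in null liver, at log2 fold changes from -5.96 to -3.62, and the hepatocyte markers, at 1.31% to 3.65% of liver in null fat and 0.418% to 1.06% in hHKDC1 OE fat, were lower in the same direction. Of the female-biased genes 5 were tested in fat, with a median of -1.05. The steroid hydroxylase Cyp17a1 was at -1.64 (SE 0.80), Prom1 at -1.05 (SE 0.49) and Abcd2, which adipocytes express, at -0.50 (SE 0.19). Leaving out null fat replicate 3 gave -0.93 for Cyp17a1, and leaving out replicate 1 or replicate 2 of hHKDC1 OE gave -2.65 or -1.23.

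Beside Igfbp1, 8 genes that insulin represses or that the transcription factor FOXO1 activates, Foxo1 itself included, were followed. In liver 2 were higher and 6 lower in hHKDC1 OE, and the list's median difference on the log2 scale was -0.26 against 0.0064 for all genes, with 2 at an unadjusted p under 0.05 (6.94% of all genes). Pdk4, which inhibits pyruvate dehydrogenase, was at 1.89 ± 0.701 CPM against 5.69 ± 0.949 CPM in null liver (SD, n = 3), with no overlap (12.5% of all genes). Its log2 fold change was -1.58 (SE 0.33, adjusted p = 0.355). DESeq2 called it (adjusted p = 0.0141), and so did edgeR without replicate 2 of hHKDC1 OE liver (-1.91, adjusted p = 0.0342), the fits that called 0.367% and 1.07% of all genes. Foxo1 and Foxo3 were at -0.36 (SE 0.20) and -0.35 (SE 0.15). Without replicate 2 of hHKDC1 OE liver Foxo1 was at -0.20, and without replicate 1 it was at -0.53. In fat all 8 were lower, with a median of -0.41 against -0.045 for all genes. Foxo1 was at 118 ± 18.0 CPM against 199 ± 17.5 CPM in null fat and Foxo3 at 53.5 ± 8.28 against 79.6 ± 3.30 CPM (SD, n = 3), with no overlap in either (22.7% of all genes), and their log2 fold changes were -0.75 (adjusted p = 0.133) and -0.57 (adjusted p = 0.143). DESeq2 called Foxo1, Socs1, Socs3 and Cyp4a12b in fat, beside 4.79% of the 29853 genes with a count. With replicate 2 of hHKDC1 OE fat left out, edgeR called Foxo1 (-0.89), Foxo3 (-0.72), Prom1 (-1.69) and Abcd2 (-0.64), beside 18.9% of all genes. The glucose-6-phosphatase gene G6pc was at -1.44 (SE 0.64), beside the lower hepatocyte markers in hHKDC1 OE fat. G6pc was at -0.85 without null fat replicate 3, and at -2.36 or -1.13 without replicate 1 or replicate 2 of hHKDC1 OE.

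For Igf1 and Socs2, the genes with the most similar pattern were sought among 6926 protein-coding genes with a mean of at least 10 CPM in each tissue, by the root mean square difference of log2 CPM over the 12 libraries after the mean of each tissue was subtracted. Nearest to Igf1 were Eif1a (0.142), Ralb (0.144) and Lnx2 (0.149), against a median of 0.338 over the candidates. Nearest to Socs2 were Ifit1 (0.385), Rpl30 (0.393) and Hhex (0.435), against a median of 0.870. Socs2 itself varied by 0.844 and Igf1 by 0.258 on the same scale.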

How the data were processed

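The authors mapped reads with STAR (2.5 in the submitters' processing notes) and counted fragments per gene with HTSeq 0.6.1 from libraries without strand information. The methods name a human reference, whereas 99.9% of the identifiers are in mouse GENCODE M21 and 98.3% have the same position there. The deposited counts are whole numbers without normalization. The authors' deposited FPKM values were recomputed from counts, gene lengths and median-of-ratios size factors over the 12 libraries, and 100% came within 1%. Their tables of fold changes and p-values, which hold their own comparisons, were not used.

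Samples were grouped by title. Each tissue, the null libraries of both tissues, and the interaction over 12 libraries were fitted with edgeR 4.0.16 (quasi-likelihood test, TMM, filterByExpr, Benjamini-Hochberg over all genes tested, called under 0.05) in R 4.3.3. All 10 members passed the filter in every fit. Alternatives used DESeq2 1.42.0, limma 3.58.1 on log2(FPKM + 1) and log2(FPKM + 0.1), other scalings and filters, the replicate number as a block, and each library left out. Scripts were tested on simulated counts. Intervals cover the spread between libraries, and counting limits cover counting error only. No replicate pair was 1 library deposited again (chi-square per gene 21.8 to 173).

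The members, lists and tests were chosen with earlier results of these data known. In each treatment comparison the text names the members and, of each list, the genes past the threshold or, where fewer than 3 passed, the 3 with the smallest p. Genes named for the null tissues were chosen after their values were seen.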

Additional observations from a re-analysis of the deposited data

How the results depend on the processing

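With each library left out in turn, 0 to 1 members were called in liver, 0 to 4 in fat and 0 to 1 for the difference between the effects, and without hHKDC1 OE replicate 2 of both tissues (chosen after seeing the data) 1 was called for the difference. The calls came when replicate 2 of hHKDC1 OE was left out, and the cause was not tested. Without the libraries described as knockouts (chosen after seeing the data) 0 members were called in liver, fat or the difference.

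Signs turned in values whose adjusted p, as reported above, missed the threshold, and the cause was not tested. Over the fits that each left out 1 library, log2 fold changes ran in liver from -0.26 to 0.079 for Igfals, -0.17 to 0.034 for Igfbp4, -0.82 to 0.73 for Socs2 and -2.20 to 1.86 for Cyp2b9, and for the difference from -0.17 to 0.33 for Igf1, -2.00 to 0.058 for Igfbp1, -1.31 to 0.34 for Igfbp2, -0.16 to 0.26 for Igfbp3 and -0.13 to 0.17 for Stat5a. Without the libraries described as knockouts, Ghr was at 0.044, Igfals at 0.24, Igfbp4 at 0.075 and Cyp2b9 at -3.04 in liver, and Igf1 at -0.25, Igfbp1 at 0.64 and Igfbp2 at 0.041 for the difference. Without replicate 2 of both tissues Igfbp1 was at 0.094 for the difference. With limma on log2(FPKM + 0.1) Cyp2b9 was at -0.022 in liver, and on log2(FPKM + 1) Igfbp1 was at 0.23 and Igfbp3 at -0.0011 for the difference. Stat5a was at -0.0032 with DESeq2 and -0.0011 with relative log expression for the difference, and scaling by library size gave Stat5b 0.037 in fat and Ghr 0.66 between the null tissues. Between the null tissues Socs2 missed the threshold with limma (-0.94, adjusted p = 0.103, and -1.51, adjusted p = 0.0663, with the larger and the smaller pseudocount).

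Same-numbered libraries did not all deviate together (correlations over genes of 0.22, 0.19 and 0.088 between null and hHKDC1 OE liver, and -0.13, -0.015 and 0.0064 in fat). In liver, and between null liver and null fat, every library correlated best with its own number, which is a hint from the data and not from the labels. With the replicate block 0 members were called in liver, fat and the difference. Between the null tissues the block gave 7 members, beside 5176 genes higher and 4762 lower of the 15259 tested. The block fits called 13 genes higher and 4 lower in liver, 159 and 9 in fat and 3 and 1 for the difference, against 0 in each without the block.

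Over all genes DESeq2 called 44 higher and 47 lower in liver, 1243 and 188 in fat and 406 and 91 for the difference, and edgeR without a filter on low counts 180 and 147, 723 and 80, and 426 and 53. Without replicate 2 of hHKDC1 OE, edgeR called 77 and 69 in liver. In 1 fit over the 12 libraries edgeR called 770 and 106 in fat, with 0 members. With 3 libraries a group, the 95% intervals of the members were wide (-1.93 to 0.83 for Igfals in fat), and an adjusted p above the threshold does not show equal levels.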
